A study of Homo sapiens with 6 samples.

Results

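The genes of the hypoxia-inducible factor (HIF) subunits were examined in RNA of Kasumi-1 cells, an established line from a human acute myeloid leukaemia. The members were the 5 genes HIF1A, EPAS1, HIF3A, ARNT and ARNT2, matched by gene name among 32917 genes of the expression table. They held 8 of 42618 peaks in the authors' list of N6-methyladenosine (m6A) peaks and 4 of 19979 peaks that the authors compared between treatments.

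A HIF is a pair of proteins. The alpha subunit, encoded by HIF1A, EPAS1 (HIF-2 alpha) or HIF3A, is hydroxylated when oxygen is present, bound by the VHL protein and degraded. The beta subunit, encoded by ARNT or ARNT2, is not controlled by oxygen in this way and is needed for the pair to bind DNA. In blood progenitors and leukaemia cells HIF1A is the widely used alpha gene, while EPAS1 was named for its expression in endothelium. m6A is a methyl mark placed on messenger RNA, often near stop codons and in 3' UTRs, that acts on the stability and translation of the RNA.

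All 6 libraries, 3 of input RNA and 3 of the m6A immunoprecipitate (IP), came from wild-type Kasumi-1 cells given 100 uM CoCl2 together with 10 nM echinomycin for 24 hours, in 3 biological replicates. CoCl2 is a hypoxia mimic that prevents hydroxylation of the alpha subunits, and echinomycin binds DNA and hinders HIF-1 at its sites. The authors also compared the m6A enrichment of this combined treatment with CoCl2 alone, which asks what echinomycin adds to the mimic. Libraries of CoCl2 alone and of untreated cells were not analysed here, so no change in the expression of a subunit gene can be given. Levels are in FPKM, fragments scaled by transcript length and library size, which can be set side by side between genes. How deeply the libraries were sequenced is unknown. The line expressed its identity markers, with all 10 of a list above 1 FPKM (MPO at 56.2, KIT at 40.4 and CD34 at 14.8 FPKM), summing to 190 to 208 FPKM per library. Markers of other cells were low or absent as a list, at 2.77 to 2.98 FPKM summed over 5 endothelial genes of the table (VWF at 0.00228 and PECAM1 at 0.351 FPKM), 0.0933 to 0.220 for 1 erythroid gene and 0.674 to 0.734 for 2 fibroblast genes. The 4 lymphoid genes summed to 34.9 to 40.9 FPKM, most of it CD3D at 32.1 FPKM.

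One stretch of sequence under a member's peak could be shown. The 5' UTR peak of HIF1A began at the first base of the gene in the authors' table, and that base is also a start that RefSeq gives for HIF1A. The 30 bases below, from RefSeq (GRCh38.p14, chr14:61695526-61695555, plus strand), lie in that peak. They are shown because they hold GGAC, the core of the consensus that the m6A methyltransferase recognises, in capitals.

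HIF1A 5' UTR: gcctcgtctgaggGGACaggaggatcaccc

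The motif began at base 27 of the transcript and was the only GGAC among the first 50 bases. GGAC stood in the first 50 bases of 18.9% of 35116 RefSeq start windows on the transcript strand, and on either strand in 33.5%. Of the members, 4 were matched in the RefSeq promoter table. HIF1A held GGAC at 1 of its 2 starts and EPAS1 at its 1 start, while the 1 start of ARNT and the 3 of HIF3A did not hold these letters. A match describes the sequence and does not show a methylated base. ARNT2 was not matched.

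HIF1A was the most abundant subunit transcript. Its input level was 25.2, 26.4 and 24.8 FPKM in replicates 1 to 3, a mean of 25.4 ± 0.832 FPKM (SD, n = 3). It lay above 89.6% of the 12612 genes with a mean of 1 FPKM or more, here called expressed. The 3 libraries were close to each other, with a coefficient of variation of 3.27%.

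ARNT, the common beta subunit, came second. It was at 14.9, 14.5 and 14.5 FPKM, a mean of 14.6 ± 0.227 FPKM (SD, n = 3), above 79.0% of expressed genes. The lowest HIF1A value lay above the highest ARNT value, and HIF1A exceeded ARNT 1.74 ± 0.0684 times (SD, n = 3) within a library.

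EPAS1 was expressed at a moderate level. It was at 4.27, 4.32 and 4.56 FPKM, a mean of 4.38 ± 0.153 FPKM (SD, n = 3), above 43.6% of expressed genes. ARNT exceeded it 3.34 ± 0.154 times (SD, n = 3), with no overlap between the libraries. Most of the endothelial genes listed above were near 0 in the same libraries, and only ERG, which leukaemia cells also express, passed 1 FPKM, at 2.44 ± 0.0790 FPKM (SD, n = 3).

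ARNT2, the beta subunit of neural tissue and kidney, was nearly silent. It was at 0.160, 0.222 and 0.233 FPKM, a mean of 0.205 ± 0.0392 FPKM (SD, n = 3). Its spread was the widest of the members above 0, with a coefficient of variation of 19.1%. HIF3A, an alpha gene whose shorter forms can oppose HIF-1, was listed at 0 in all 3 libraries, as were 2837 of the 32917 genes of the table. No ribosomal protein gene of the table was listed at 0.

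The order HIF1A, ARNT, EPAS1, ARNT2, HIF3A was the same in each library, and none of the 4 neighbouring pairs overlapped in its range over the libraries. The order is given as a description without a test, since an exact permutation test over 3 libraries cannot give a p below 0.05. HIF1A made up 85.3% ± 0.756 (SD, n = 3) of the summed FPKM of the alpha genes and EPAS1 the other 14.7% ± 0.756 (SD, n = 3). ARNT made up 98.6% ± 0.280 (SD, n = 3) of the beta genes. Alpha transcripts summed to 2.01 ± 0.0653 times (SD, n = 3) the beta transcripts.

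**Figure D1:**
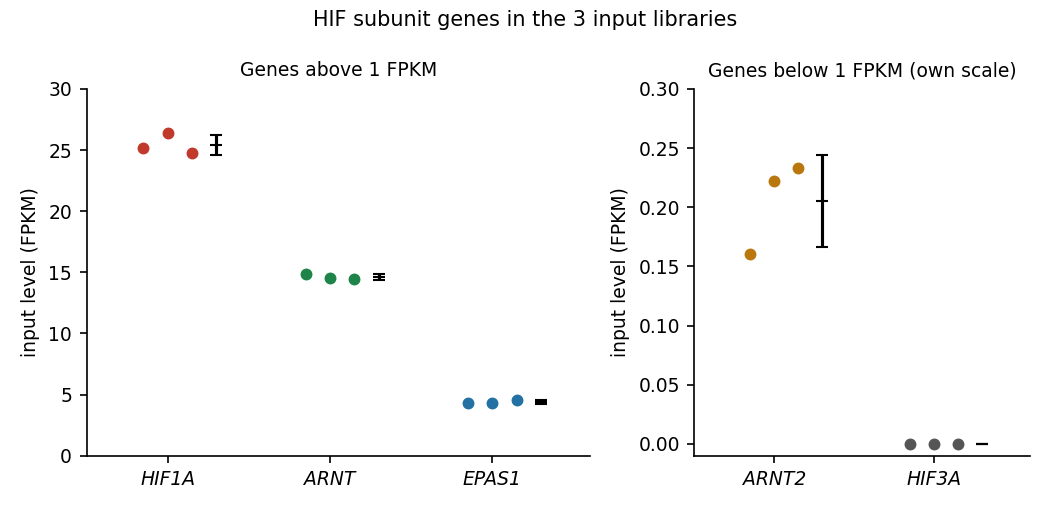
Input level in FPKM of the 5 HIF subunit genes after the combined treatment, 1 point per input library in replicate order, with the mean and SD beside them (n = 3). HIF1A, ARNT and EPAS1 sit in separate bands at 25.4, 14.6 and 4.38 FPKM on the left, and ARNT2 and HIF3A are drawn on their own scale on the right at 0.205 and 0 FPKM.

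Genes at nearly the same level across the 3 input libraries were of mixed function. By the root mean square difference of log2(FPKM + 0.1) over 3 libraries among 23994 uniquely named genes, the nearest to HIF1A were PTGS1, a cyclooxygenase, STAT5A, a transcription factor of cytokine signalling, and PYGL, a glycogen phosphorylase, at differences of 0.0160 to 0.0195. For ARNT they were ZSCAN32, a zinc finger gene, MANBAL and MYG1, at 0.00116 to 0.00977. For EPAS1 they were OCRL, a phosphoinositide phosphatase, DCAF6, a ubiquitin ligase adaptor, and TPM3P9, a tropomyosin pseudogene, at 0.0148 to 0.0153. With 3 libraries of 1 condition this is likeness of level and no more.

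m6A peaks were listed for HIF1A, EPAS1 and ARNT2, and none for ARNT or HIF3A. Among all expressed genes 79.7% had a listed peak, against 30.7% of genes under 1 FPKM. ARNT was therefore 1 of the expressed genes without one: in its range of 10 to 20 FPKM, 1777 of 2061 genes (86.2%, exact Clopper-Pearson 95% interval 84.7 to 87.7) had a peak and 284 had none. ARNT2 had 2 peaks in the range of 0.1 to 0.5 FPKM, where 45.4% of 5796 genes had any (44.1 to 46.7). The genes of that range with a peak had a median of 2, so ARNT2 was not unusual. Intervals cover counting error only. A gene without a listed peak may carry m6A that the authors' threshold did not pass.

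**Figure D2:**
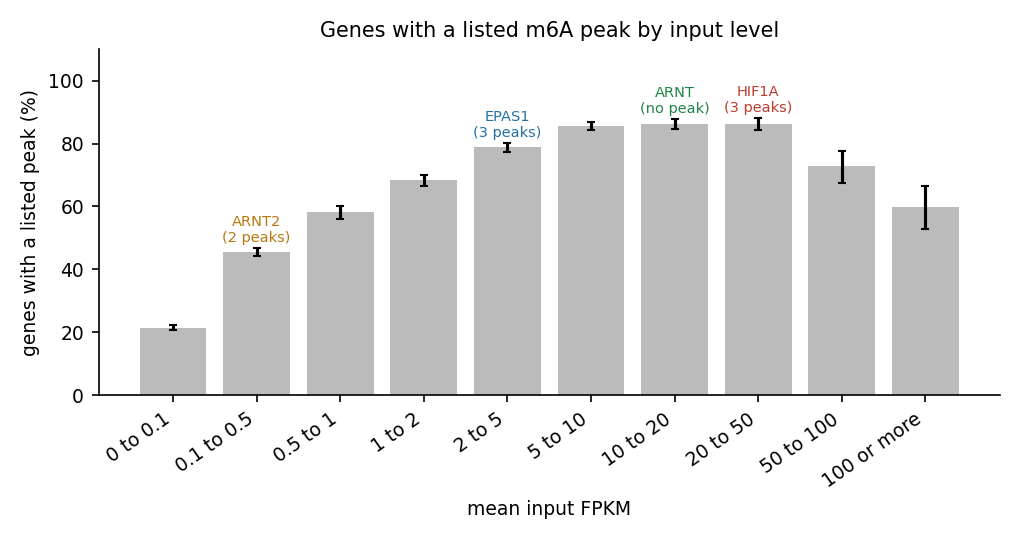
Share of genes with at least 1 listed m6A peak, in percent, in ranges of mean input FPKM, with exact 95% intervals. The member genes above 0 FPKM are written above their range with their number of listed peaks, and ARNT is the expressed member with none although 86.2% of genes in its range had a peak.

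HIF1A had 3 listed peaks, of which the 2 labelled as its own were weakly enriched and the third, labelled with an exon of the antisense gene HIF1A-AS3, was the strongest. Fold enrichment is the authors' ratio of IP over input, 1 value per peak over all replicates and without an error. The 5' UTR peak, at 61695513 to 61695723 on chromosome 14 (211 bases), had a fold enrichment of 2.09 and an authors' false discovery rate (FDR) of 3.16e-40. The peak in exon 12 of 15, at 61740920 to 61741129 (210 bases), had a fold enrichment of 1.68 and an FDR of 3.98e-48. Exon 12 encodes part of the oxygen-dependent degradation domain, where hydroxylation marks the protein for VHL.

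The third HIF1A peak spanned 61707683 to 61713970 in 2 blocks of 1131 and 35 exonic bases. Its fold enrichment was 6.33 and its FDR 2.00e-57. The authors' annotation assigned it to HIF1A but placed it in exon 2 of 3 of a HIF1A-AS3 transcript, which runs on the other strand. All 3 HIF1A peaks lay inside the extent of an antisense gene, the 5' UTR peak inside HIF1A-AS1 and the others inside HIF1A-AS3. HIF1A-AS3 was at 2.08, 1.89 and 1.69 FPKM, a mean of 1.89 ± 0.196 FPKM (SD, n = 3), and HIF1A exceeded it 13.6 ± 1.32 times (SD, n = 3). HIF1A-AS1 was far lower, at 0.212, 0.0419 and 0 FPKM in replicates 1 to 3, a mean of 0.0845 ± 0.112 FPKM (SD, n = 3). The libraries marked the strand, but no source used here says whether counting and peak calling made use of it. Which of the overlapping genes gave the reads of these peaks was not tested.

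EPAS1 had 3 listed peaks, all toward the 3' end of the gene. Its 3' UTR held a peak at 46384546 to 46384845 on chromosome 2 (300 bases) with a fold enrichment of 2.17 (FDR 1.00e-11). A second 3' UTR peak at 46385442 to 46385890 (449 bases) had a fold enrichment of 2.23 (FDR 1.17e-08). The peak at 46379890 to 46380159 (270 bases), labelled exon 1 of 5 of a shorter EPAS1 transcript, had a higher fold enrichment of 5.59 at a weak FDR of 0.0398. No antisense gene of the expression table overlapped EPAS1.

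ARNT2 had 2 listed peaks near its 3' end. One, labelled 3' UTR, spanned 80591600 to 80594275 on chromosome 15 in blocks of 105 and 676 bases, with a fold enrichment of 5.59 (FDR 3.39e-05). The other, in exon 16 of 19 at 80580089 to 80580536 (448 bases), had a fold enrichment of 6.52 (FDR 0.0145) and lay inside the antisense gene AC108451. AC108451 was at 0.121 FPKM in replicate 1 and listed at 0 in the others. In all, 4 of the 8 member peaks lay inside an antisense gene, and the share of all listed peaks that do so was not counted.

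**Figure D3:**
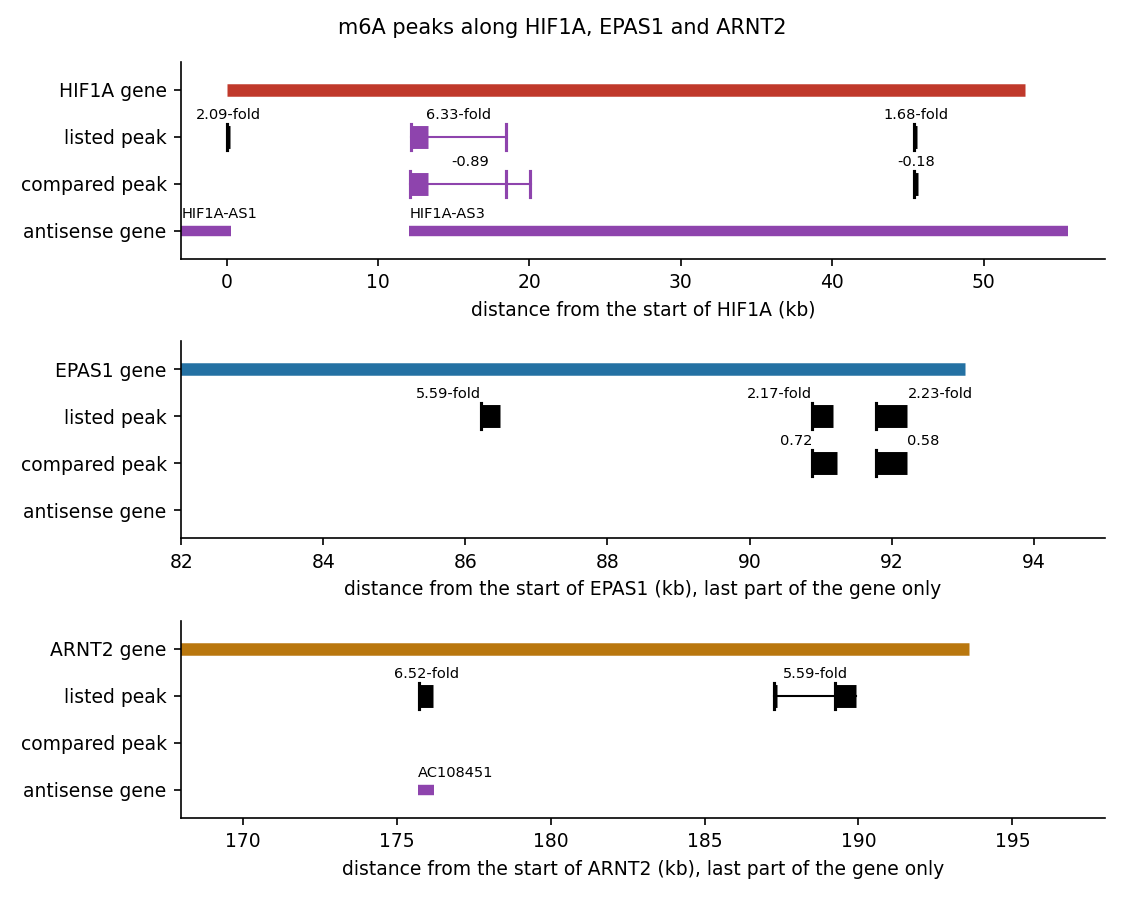
Listed peaks and peaks compared between treatments along HIF1A, EPAS1 and ARNT2, by distance from the gene's start in kb, with genes of the opposite strand below (HIF1A-AS1 reaches further left than drawn). Blocks are exonic bases, purple peaks carry an exon of HIF1A-AS3, and numbers give fold enrichment for listed peaks and log2 fold change for compared peaks.

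Fold enrichment and p ranked several member peaks differently. The HIF1A peaks labelled as its own lay at percentiles 6.65 (exon 12) and 14.7 (5' UTR) of fold enrichment among all listed peaks, yet at 78.2 and 76.1 when peaks were ranked by p. The ARNT2 peaks lay at 59.7 (3' UTR) and 67.5 (exon 16) by fold enrichment and at 42.8 and 20.8 by p. The HIF1A peak with the exon of HIF1A-AS3 was high by both, at 65.0 by fold enrichment and 80.2 by p. Median fold enrichment over all genes was 3.07 at 20 to 50 FPKM, the range of HIF1A, 4.07 at 2 to 5 FPKM, the range of EPAS1, and 6.52 at 0.1 to 0.5 FPKM, the range of ARNT2. Set against these, the HIF1A peaks of its own exons and the 3' UTR peaks of EPAS1 were below their range's median, the HIF1A-AS3 exon peak of HIF1A and the exon peak of EPAS1 were above it, and the ARNT2 peaks were at it (exon 16) or below it (3' UTR). Fold enrichment was thus lower in the ranges of higher input level, and how far the level accounts for the order of the members was not tested.

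**Figure D4:**
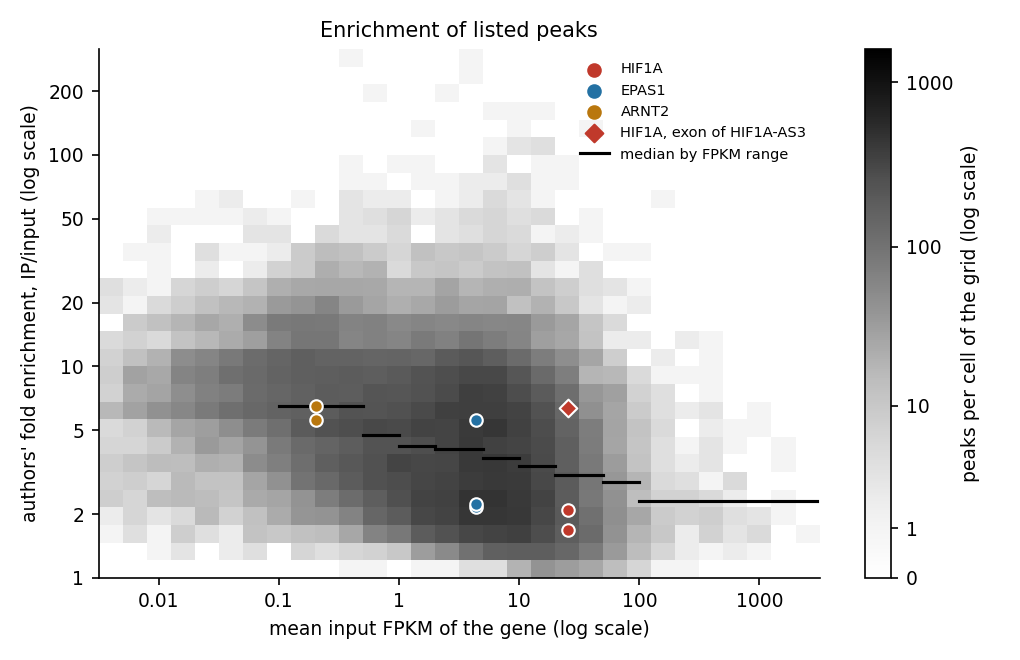
Authors' fold enrichment of each listed peak against the mean input FPKM of its gene, both on log scales, with the number of peaks as grey shading and the median per FPKM range as black lines. Of the 8 member peaks (coloured), the HIF1A peaks of its own exons and the EPAS1 3' UTR peaks lie under the median of their range, and the HIF1A-AS3 exon peak (diamond) lies above it at 6.33.

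Between the combined treatment and CoCl2 alone, m6A enrichment was lower at both compared peaks of HIF1A and higher at both compared peaks of EPAS1. These are values of the authors' deposited table, read as the combined treatment over CoCl2 alone because its title names them in that order. All 4 member peaks of the authors' deposited table passed the FDR of 0.05, against 68.9% of all compared peaks. Lower peaks made up 45.8% and higher peaks 23.1% of the authors' deposited table, so a call in either direction was common. Among 2929 genes with exactly 2 compared peaks in the authors' deposited table, both were lower in 27.3% and both higher in 12.4%.

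For HIF1A the larger change was at the peak with the exon of HIF1A-AS3. By the authors' deposited table it had a log2 fold change of -0.89 (FDR 2.57e-07), which is 0.538 times the enrichment in CoCl2 alone, over 1254 exonic bases from 61707654 to 61715584. The exon 12 peak, at 61740890 to 61741159, had a log2 fold change of -0.18 (FDR 0.00776) in the authors' deposited table. That is a small change, 0.882 times, and it lay above the median of all compared peaks, which was -0.43 in the authors' deposited table. Taken relative to that median, the exon 12 peak was at 0.25 and turned to the higher side, while the HIF1A-AS3 exon peak was at -0.46. The peak that was lower on both scales is the one whose labelled exon belongs to HIF1A-AS3. The 5' UTR peak of HIF1A was not among the peaks compared.

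For EPAS1 both compared peaks were in the 3' UTR and of similar size. The peak at 46384546 to 46384904 had a log2 fold change of 0.72 (FDR 0.00813) in the authors' deposited table, or 1.65 times. Its neighbour at 46385442 to 46385890 had one of 0.58 (FDR 0.0427) in the authors' deposited table, or 1.49 times. They lay at percentiles 80.0 and 75.2 of all compared peaks, and relative to the median of the authors' deposited table they were at 1.15 and 1.01. The second of them did not pass an FDR of 0.01. Each overlapped a listed peak of the combined treatment, over 83.6% and 100% of its exonic bases.

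No peak of ARNT, ARNT2 or HIF3A was compared. None of the 4 changes of the authors' deposited table reached 2-fold. The table gives no replicate values, so whether these differences exceed the spread between replicates could not be tested, and the difference between HIF1A and EPAS1 has no test.

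**Figure D5:**
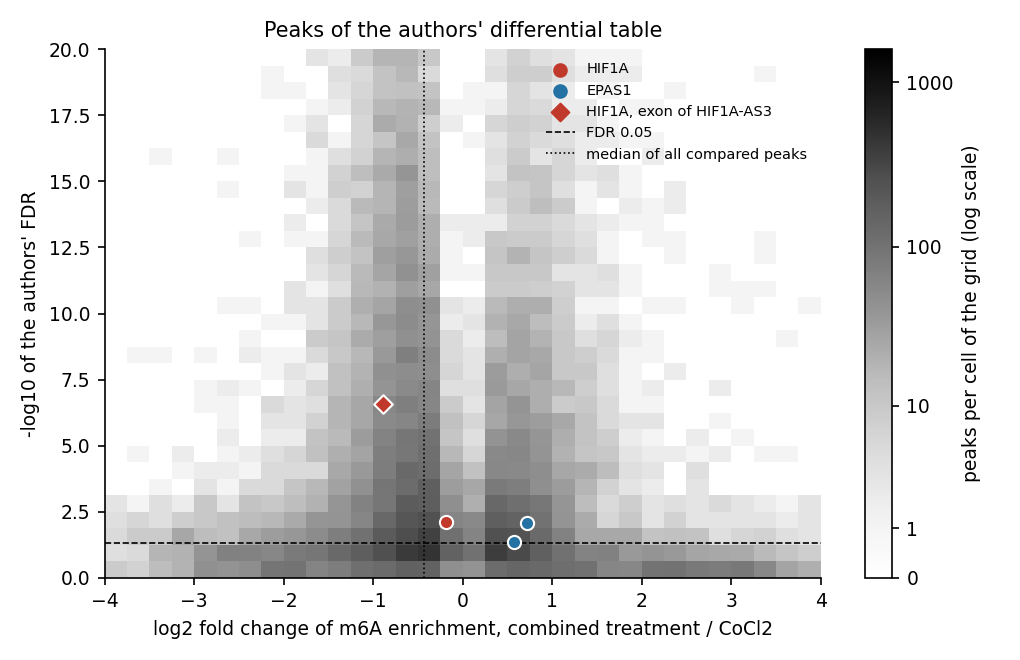
Log2 fold change of m6A enrichment (combined treatment over CoCl2) against -log10 of the FDR for peaks of the authors' deposited table, as grey shading, with 2439 peaks outside the plotted range. The HIF1A peaks (red) lie at -0.89 and -0.18, on either side of the median of all compared peaks (dotted), and the EPAS1 peaks (blue) at 0.72 and 0.58, the lower of them close to the FDR limit of 0.05 (dashed).

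HIF subunits bind DNA and pair through bHLH and PAS domains, and whether each other protein listed here holds both was not examined. The other genes listed as bHLH-PAS proteins were expressed in part. The expression table held 15 such genes, of which 8 were expressed, and each of these 8 had a listed peak, beside the 79.7% of all expressed genes given above. The most abundant were NCOA3 at 9.19 ± 0.313 FPKM (SD, n = 3), PER1, a repressor of the circadian clock, at 8.53 ± 0.661 FPKM (SD, n = 3), NCOA2 at 6.35 ± 0.0746 FPKM (SD, n = 3) and NCOA1 at 5.09 ± 0.316 FPKM (SD, n = 3), the NCOA genes encoding coactivators of nuclear receptors. All lay below HIF1A and ARNT. Taking each gene at its compared peak of lowest p in the authors' deposited table, 5 of 10 family genes were lower, 2 higher and 3 not called, with a median log2 fold change of -0.64. In the authors' deposited table, over all 11315 genes taken the same way, 52.7% were lower and 22.6% higher, with a median of -0.50. By lowest p the leading genes of the authors' deposited table were NCOA2 (-0.88), AHRR, a repressor of the dioxin receptor (-0.97), NCOA1 (-1.12) and NCOA3 (0.71).

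Of the factors that act on the alpha subunits, 19 of 20 in the expression table were expressed, and 19 of these 19 carried a listed peak, again beside 79.7% of all expressed genes. The chaperone genes HSP90AB1 and HSP90AA1 stood at 351 ± 15.7 and 146 ± 4.64 FPKM (SD, n = 3). RACK1, a scaffold that binds HIF-1 alpha, was at 279 ± 11 FPKM (SD, n = 3), and VHL at 39.5 ± 0.962 FPKM (SD, n = 3). At the peak of lowest p in the authors' deposited table, 11 of 14 of them were lower and 3 higher, and none was left uncalled. Beside this stand 52.7% lower and 22.6% higher over all genes of the authors' deposited table. The median log2 fold change was -0.48 for these factors and -0.50 for all genes of the authors' deposited table. The lowest p belonged to HSP90AA1 (0.89), RACK1 (0.46), the coactivator inhibitor CITED2 (-0.41) and the coactivator gene CREBBP (-0.82) in the authors' deposited table. The peak of lowest p does not stand for every peak of a gene: 6 of these 14 genes, RACK1, VHL and CITED2 among them, had peaks called in both directions in the authors' deposited table. How often this held over all genes was not counted.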

How the data were processed

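Per the labels' protocols, poly(A) RNA of Kasumi-1 cells was fragmented, and m6A-bearing fragments were pulled down and sequenced beside input RNA in strand-marked paired-end libraries. Tools named in the submitters' processing notes are fastp, HISAT2, HOMER, and also ChIPseeker. No source used here gives the peak caller, FPKM tool, genome build or handling of replicates. The authors deposited FPKM per gene and input library, and 6 other per-sample columns of that table were not used. They deposited a linear fold enrichment (a ratio of IP over input) and a p-value per listed peak, and a log2 fold change and p-value per compared peak. Log10 FDR values of both deposited lists were read as a score. Low FPKM values showed no steps of whole reads, so depth is unknown.

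Repeated lines (16 listed, 4 compared) were counted once. Peaks were called at an FDR under 0.05, and genes taken as expressed at 1 FPKM or more. The fold change direction follows the order of names in the table's title: 4 of 52 peaks at a log2 of -4 or lower overlapped a listed peak of the combined treatment, against 68 of 68 at 4 or higher. Peak coordinates are those of the tables. Start windows are RefSeq's (GRCh38.p14, 250 bases before to 50 after a start), and GGAC was searched on both strands.

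The members and gene lists were chosen with earlier results of these data known. Named genes were the 5 members, the 3 genes nearest to each expressed member in input level, up to 4 genes of each list by lowest authors' p and up to 4 by highest mean FPKM, and antisense genes at the members' loci. The lists were other bHLH-PAS proteins, factors acting on the alpha subunits, and markers of Kasumi-1 and of endothelial, lymphoid, erythroid and fibroblast cells. Functions were tested on simulated data. Figures were drawn with matplotlib 3.10.9, and values computed in Python 3.11.15 with scipy 1.17.1, pandas 2.3.3 and numpy 2.4.6.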

Additional observations from a re-analysis of the deposited data

How the results depend on the processing

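No alternative changed the order of the subunit genes. Leaving out 1 input replicate at a time gave means of 25.0 to 25.8 FPKM for HIF1A, 14.5 to 14.7 for ARNT, 4.29 to 4.44 for EPAS1 and 0.191 to 0.228 for ARNT2, a HIF1A share of 85.0% to 85.7% and an alpha to beta ratio of 1.97 to 2.04. A limit of 5 FPKM left 2 expressed members in place of 3. With peaks of a fold enrichment of 2 or more, or with an exon of the same gene only, 7 of the 8 listed peaks were counted. At an FDR under 0.01, or with an exon of the same gene only, 3 of 4 compared peaks were called, and with a 2-fold limit 0. As means over each gene's peaks, the log2 fold changes of the authors' deposited table were -0.54 for HIF1A and 0.65 for EPAS1. Centring on the median of all compared peaks, chosen after seeing the data, gave -0.46 and 0.25 for HIF1A (the latter reversed by the shift itself) and 1.15 and 1.01 for EPAS1 in the authors' deposited table, and 2 peaks past 2-fold. No paired analysis was possible because IP and input share replicate numbers but IP values per replicate were not analysed here.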

Other observations

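Antisense genes at 2 of these loci had listed peaks assigned to them. HIF1A-AS1 had a peak of 504 exonic bases in its exon 2 of 2, at 61681041 to 61681544 on chromosome 14, with a fold enrichment of 24.2 (FDR 3.24e-06), outside the extent of HIF1A. Its input level was 0.212 and 0.0419 FPKM in replicates 1 and 2, and it was listed at 0 in replicate 3. AC108451, on the strand opposite to ARNT2, was assigned a peak of 301 exonic bases at 80576943 to 80581377 on chromosome 15, with a fold enrichment of 11.2 (FDR 0.00417). AC108451 itself spans only 80580029 to 80580566, so the outer positions of the peak lay beyond both ends of that gene and inside ARNT2. That peak carried exon 15 of 19 of ARNT2 in the authors' annotation, so it was assigned to AC108451 while labelled with an exon of ARNT2, the mirror image of the HIF1A peak that carried an exon of HIF1A-AS3. Neither peak was among the members, which were matched by gene name.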
